A study of Mus musculus with 6 samples.

Results

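Among the genes that equip an osteoclast to resorb bone, 9 were followed through a comparison of verapamil-treated with control cultures: the effectors Acp5, Calcr and Ckb, and the trafficking and lysosomal membrane genes Snx10, Plekhm1, Plekhm2, Syt7, Slc37a2 and Lamtor1. They were picked by symbol from the 16775 genes of the deposited table, and all 9 were found. With verapamil the 3 effector genes fell, by 2.89-fold to 3.61-fold. The trafficking genes split. Snx10 fell by a smaller amount, Plekhm1 and Plekhm2 rose, Slc37a2 and Lamtor1 did not pass the test, and Syt7 was represented by 1 to 3 reads per library.

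Osteoclasts are multinucleated cells of the macrophage lineage. A resorbing osteoclast seals off a patch of bone and turns the membrane facing it into a ruffled border, by moving secretory lysosomes along microtubules and fusing them with the plasma membrane. Acid and enzymes such as tartrate-resistant acid phosphatase are released there. Loss of SNX10 or PLEKHM1 in people causes osteopetrosis, a disease in which bone is not resorbed.

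The libraries were RNA-seq of macrophages from the tibial and femoral marrow of wild-type mice, cultured in 30 ng/ml M-CSF. RANKL at 50 ng/ml was then added to both groups, in medium with 10% serum, to form osteoclasts. The control group had these cytokines alone and the other group also had verapamil, a drug that blocks L-type calcium channels. The titles give day 5, while the protocol text runs to day 7. The labels give no dose or timing of verapamil and no strain, age or sex of the mice. The comparison used 2 control libraries (replicates 1 and 3) and 3 verapamil libraries. Control replicate 2 was not analysed here. Each library held 20202340 to 21494523 estimated reads. The controls stood far apart: over genes with more than 50 reads on average, their squared difference was 93.5 times that of counting noise, against 4.39 to 10.7 times for pairs of verapamil libraries. Every comparison below rests on these 2 controls. The labels do not say whether replicates were separate mice or cultures, and the p-values below reflect only the variation among these 5 libraries, which may be technical.

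Levels are given as CPM, which are reads divided by TMM-scaled library size. A gene was called when its edgeR quasi-likelihood p, adjusted by the Benjamini-Hochberg method over all 12619 tested genes, was under 0.05. Of the 9 genes 8 passed the filter on low counts and were tested. The called genes were 6 of these 8, of which 4 were lower and 2 higher with verapamil. Over all tested genes 25.4% were called, 15.4% as lower and 9.99% as higher. These shares belong to this fit alone. DESeq2 called 3518 of 12619 genes, and 4353 of 12390 were called with a transcript length trend removed. Without verapamil replicate 1, 2 or 3 the calls were 1485 of 12548, 1565 of 12571 and 1460 of 12541. Counts for gene lists under those settings are to be read against these totals. Groups did not overlap for 7 of the 8 genes, against 56.7% of all tested genes. The median log2 fold change was -0.01 over all tested genes. Upper quartile scaling in place of TMM moved it to -0.13, and left 28.2% of called genes higher where TMM had 39.4%.

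**Figure D1:**
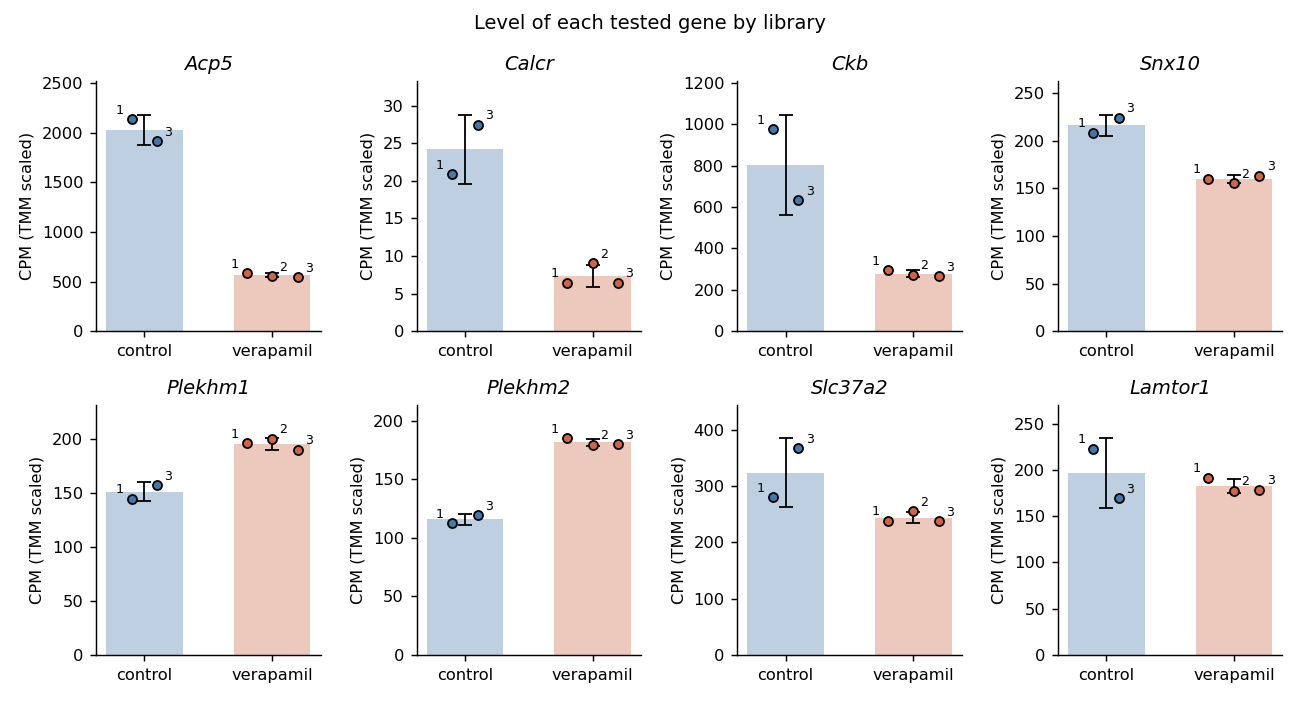
Level of each tested gene by library, in TMM-scaled CPM on the y axis, for control (2 libraries) and verapamil (3 libraries). Points are libraries with their replicate number, bars are means and error bars are SD. The groups overlap only for Lamtor1, whose verapamil libraries lie between the controls of 170 and 223 CPM.

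Promoter sequences from RefSeq (GRCm38.p6) were found for 8 of the 9 genes, all but Syt7. The 5 below are shown because they belong to the most abundant pair that fell (Acp5, Ckb), the pair that rose (Plekhm1, Plekhm2) and the gene with an E-box (Lamtor1). Each is the 250 bases before the start site, written 5′ to 3′ in the direction of the gene. Capitals mark matches, on either strand, to CACGTG (the E-box core of lysosomal gene promoters), TCATGTG (the M-box bound by MITF), TGANTCA (AP-1) or GGAAA (the NFAT core).
Acp5, chr9:22135747-22135996, minus strand: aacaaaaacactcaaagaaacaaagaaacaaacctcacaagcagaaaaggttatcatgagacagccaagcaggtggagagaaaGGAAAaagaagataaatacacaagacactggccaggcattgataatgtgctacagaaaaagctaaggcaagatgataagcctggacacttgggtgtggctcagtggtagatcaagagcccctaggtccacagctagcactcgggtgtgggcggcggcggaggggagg
Ckb, chr12:111672339-111672588, minus strand: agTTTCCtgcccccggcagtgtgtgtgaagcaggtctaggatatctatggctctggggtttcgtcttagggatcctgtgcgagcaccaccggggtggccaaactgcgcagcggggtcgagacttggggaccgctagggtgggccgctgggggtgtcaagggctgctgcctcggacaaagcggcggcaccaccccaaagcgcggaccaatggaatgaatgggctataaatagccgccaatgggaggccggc
Plekhm1, chr11:103412706-103412955, minus strand: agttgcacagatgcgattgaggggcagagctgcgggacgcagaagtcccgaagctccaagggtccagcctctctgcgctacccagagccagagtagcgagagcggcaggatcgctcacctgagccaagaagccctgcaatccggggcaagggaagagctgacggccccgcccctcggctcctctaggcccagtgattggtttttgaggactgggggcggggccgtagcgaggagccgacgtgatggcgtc
Plekhm2, chr4:141664147-141664396, minus strand: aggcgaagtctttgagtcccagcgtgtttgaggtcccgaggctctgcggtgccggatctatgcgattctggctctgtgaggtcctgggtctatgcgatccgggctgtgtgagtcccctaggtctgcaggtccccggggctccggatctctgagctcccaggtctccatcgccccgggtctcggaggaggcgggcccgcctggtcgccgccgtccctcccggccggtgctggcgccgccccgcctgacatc
Lamtor1, chr7:101905587-101905836, plus strand: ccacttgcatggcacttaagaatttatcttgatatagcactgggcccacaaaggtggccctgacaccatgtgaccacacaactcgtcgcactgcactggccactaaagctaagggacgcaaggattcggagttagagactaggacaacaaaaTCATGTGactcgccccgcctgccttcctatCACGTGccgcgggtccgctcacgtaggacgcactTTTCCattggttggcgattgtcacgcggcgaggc

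Acp5 has 3 annotated start sites, and the sequence shown lies before the one farthest upstream. Counting every start site, the 8 genes had 13 such stretches. CACGTG occurred in 1 of 13, at position -68 before the Lamtor1 start, and in 6.04% of 32536 stretches of the same length from all genes. TCATGTG occurred in 2 of 13 (3.27% of all), at -98 before Lamtor1 and at -90 before the third start site of Acp5. TGANTCA occurred in 2 of 13 (6.73% of all), before the second start site of Snx10 and before Slc37a2. GGAAA occurred in 10 of 13 and in 55.7% of all. A pair of Snx10 stretches overlap and hold the same GGAAA match, which is counted in both. Annotated exons reach into these stretches in many cases: 6 of 13 had no exon base, while the Slc37a2 stretch was exon throughout (250 bases) and the Snx10 stretch with TGANTCA held 134 exon bases. The stretches of Plekhm1 and Plekhm2 held none of the 4 motifs, and neither did that before the first start site of Calcr, a gene that fell. No binding was measured, so a match is a description of the sequence.

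Acp5 (Entrez 11433; chromosome 9, 22126727 to 22135746 on GRCm38) encodes tartrate-resistant acid phosphatase, the enzyme stained to count osteoclasts. It was measured at 2138 and 1918 CPM in control replicates 1 and 3, and at 584, 556 and 545 CPM in verapamil replicates 1 to 3. Both control libraries lay far above all treated libraries. The fall was 3.61-fold (log2 -1.85, SE 0.0975, edgeR adjusted p = 0.000437). Of all tested genes 3.99% had a log2 fold change at least as low. Part of the gene, 6.75% of its exon bases, overlaps the transcript 6530413G14Rik on the opposite strand, and whether the counting used strand is not given in the sources used here.

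Ckb (12709; chromosome 12, 111669355 to 111672338) encodes the brain-type creatine kinase, which regenerates ATP from phosphocreatine and is abundant in osteoclasts. The controls held 976 and 633 CPM, and the verapamil libraries 296, 274 and 265 CPM. The controls stood 1.54-fold apart, more than for any other tested gene of the 9, yet both lay above the treated libraries. The fall was 2.89-fold (log2 -1.53, SE 0.184, edgeR adjusted p = 0.00272). On the log2 scale it was -1.18 when control replicate 1 was left out and -1.81 when control replicate 3 was. The reads of Acp5 were 2.19 and 3.03 times those of Ckb in control replicates 1 and 3 and 1.98 to 2.06 times in the verapamil libraries, so this ratio differed more between the controls than among treated libraries.

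Calcr (12311; chromosome 6, 3685678 to 3764713), the receptor through which the hormone calcitonin inhibits osteoclasts, was far less abundant. It had 465 and 643 estimated reads in the controls (20.9 and 27.5 CPM) and 131, 175 and 131 reads with verapamil (6.44, 9.04 and 6.46 CPM). Verapamil replicate 2 was the highest treated library and still lay below the lower control. The fall was 3.31-fold (log2 -1.73, SE 0.202, edgeR adjusted p = 0.0025). The log2 estimate was -1.52 with control replicate 3 left out, and -1.91 with either control replicate 1 or verapamil replicate 2 left out. All 3 effector calls held in each of the 12 other settings tried.

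**Figure D2:**
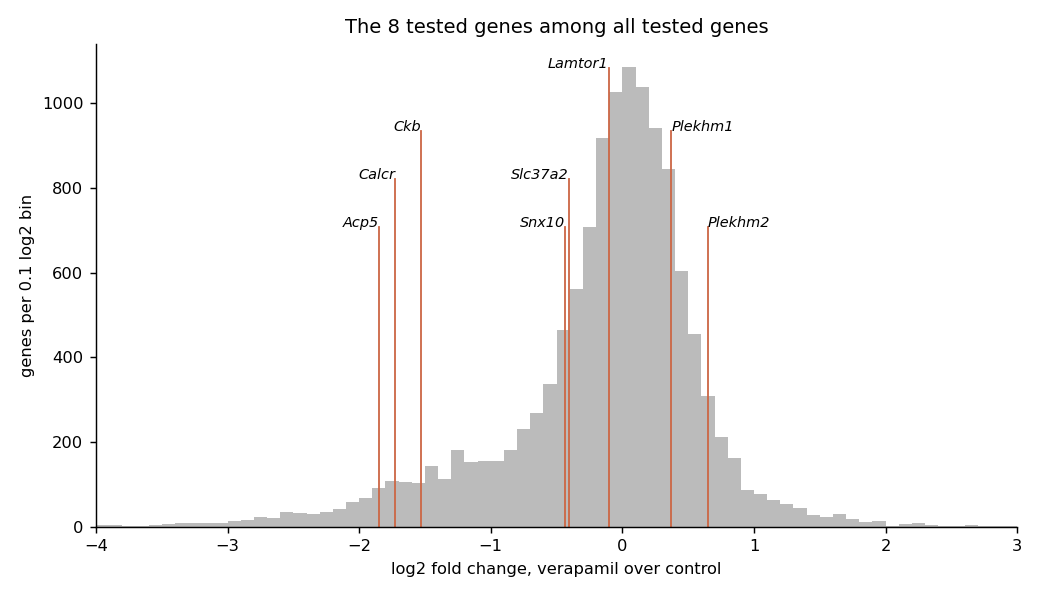
Histogram of the log2 fold change, verapamil over control, of the 12619 tested genes (y axis, genes per bin of 0.1), with a line at the value of each of the 8 tested genes. Acp5, Calcr and Ckb lie in the lower tail at -1.85 to -1.53, while the other 5 lie between -0.44 and 0.65; 32 genes lie outside the axis.

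Snx10 (71982; chromosome 6, 51523900 to 51590679) encodes a sorting nexin, a protein that binds endosome membranes through phosphoinositides. It had 208 and 224 CPM in the controls and 160, 155 and 163 CPM with verapamil. The groups were clear of each other, and the libraries within each stood 1.08-fold apart at most. The fall was 1.36-fold (log2 -0.44, SE 0.091, edgeR adjusted p = 0.0174). Of all tested genes 24.2% had a value at least as low, so the change was modest among those seen. The call was lost when verapamil replicate 1, 2 or 3 was left out (adjusted p = 0.0952, 0.109 and 0.0987), with log2 fold changes of -0.46 to -0.42. A replicate block, which adds a term for the replicate number and so leaves fewer residual degrees of freedom, also ended the call (adjusted p = 0.114).

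Plekhm1 (353047; chromosome 11, 103364275 to 103412705) encodes an adaptor that binds the GTPase Rab7 and brings in the HOPS tether that joins late endosomes, autophagosomes and lysosomes. It had 145 and 157 CPM in the controls and 196, 200 and 190 CPM with verapamil. All treated libraries were above both controls. The rise was 1.29-fold (log2 0.37, SE 0.0939, edgeR adjusted p = 0.033), and 19.8% of all tested genes had a value at least as high. It did not pass under upper quartile scaling (log2 0.25, adjusted p = 0.0866) or without verapamil replicate 1, 2 or 3 (adjusted p = 0.141, 0.171 and 0.14). With the replicate block it did not pass either (adjusted p = 0.196). Antisense transcript Arhgap27os1 shares 5.6% of its exon bases.

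Plekhm2 (69582; chromosome 4, 141625732 to 141664146), also called SKIP, links the lysosomal GTPase Arl8 to the motor kinesin-1, which carries lysosomes toward the cell periphery. It rose from 113 and 119 CPM to 185, 180 and 180 CPM. The 2 groups were tight, within 1.06-fold and 1.03-fold, and far apart. The rise was 1.57-fold (log2 0.65, SE 0.0907, edgeR adjusted p = 0.00458), and 8.18% of all tested genes had a value at least as high. This call held in each of the 12 other settings, with log2 fold changes of 0.53 to 0.69.

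Ratios of reads within a library do not depend on how libraries are scaled. Snx10 had 1.44 and 1.43 times the reads of Plekhm1 in the controls and 0.817, 0.775 and 0.86 times with verapamil. Their order by reads was therefore reversed in every treated library. Reads also depend on gene length. Per kilobase of all annotated exons, Plekhm1 was above Snx10 in the controls (25.3 and 23.2 CPM) and with verapamil (32.7 and 17.2). With the longest transcript as length, Snx10 was above Plekhm1 in the controls (33.2 and 25.3) and below it with verapamil (24.5 and 32.7). Plekhm2 had 0.779 and 0.758 times the reads of Plekhm1 in the controls and 0.944, 0.897 and 0.947 times with verapamil. The ratio of Plekhm2 to Snx10 went from 0.536 ± 0.00709 (SD, n = 2) to 1.14 ± 0.032 (SD, n = 3). With 2 libraries against 3 no test was run on these ratios.

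Slc37a2 (56857; chromosome 9, 37229149 to 37255738) encodes a sugar phosphate transporter of the tubular secretory lysosomes of osteoclasts. It had 280 and 367 CPM in the controls and 239, 255 and 237 CPM with verapamil. Control replicate 1 lay near the treated libraries and control replicate 3 well above them. The difference did not pass the test (log2 -0.41, SE 0.133, edgeR adjusted p = 0.0704). It passed under upper quartile scaling (-0.52, adjusted p = 0.0208), in DESeq2's Wald test (-0.40, adjusted p = 0.0493), with the transcript length trend removed (-0.49, adjusted p = 0.00537), and without control replicate 1 (-0.58, adjusted p = 0.000327) or control replicate 3 (-0.20, adjusted p = 0.038). The last pair of fits has 1 control and holds no spread between controls.

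Lamtor1 (66508; chromosome 7, 101905837 to 101911903) encodes the lipid-anchored subunit that holds Ragulator, the scaffold of the Rag GTPases and of mTORC1, on the lysosome. It had 223 and 170 CPM in the controls, and its treated libraries, at 192, 177 and 179 CPM, lay between them. The log2 fold change was -0.10 (SE 0.136, edgeR adjusted p = 0.589). Its sign depended on which control was used, at 0.11 without control replicate 1 (adjusted p = 0.296) and -0.29 without control replicate 3 (adjusted p = 0.00926). The gene shares 18.7% of its exon bases with Lrrc51 on the opposite strand, which had 33 to 51 estimated reads per library against at least 3434 for Lamtor1.

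Syt7 (54525; chromosome 19, 10388802 to 10453181) encodes a calcium sensor for the fusion of lysosomes with the plasma membrane. The table held 1.07 and 1 estimated reads in the controls and 1, 1 and 3 with verapamil. All libraries were at or under a floor of 3 counts, so no fold is given and a difference was not detectable at this depth. Of 21 other synaptotagmin and synaptotagmin-like genes listed, 19 were in the table and 8 passed the filter. Among these 3 were lower and 0 higher in edgeR's test, against 15.4% lower among all genes. DESeq2 called 2 lower and 0 higher. At an unadjusted p under 0.05, with no share of all genes given here, there were 4 lower and 0 higher. The count was 1 lower without verapamil replicate 1, 2 or 3. The list median was -0.91 with all libraries, -1.34 without control replicate 1 and -0.89 without control replicate 3. Syt13 went down from 7.96 ± 1.79 CPM in the controls to 3.18 ± 0.346 CPM (log2 -1.32, edgeR adjusted p = 0.00589). Sytl2 and Sytl4, which bind Rab27, fell by 1.06 and 1.48 on the log2 scale. Their calls were lost without verapamil replicate 1, 2 or 3 (highest adjusted p = 0.0829 and 0.0995), and Sytl2 was at -0.71 without control replicate 3. Sytl4, with under 1 CPM in the controls, was not called in DESeq2 (adjusted p = 0.086) or without control replicate 3 (adjusted p = 0.0792) either.

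**Figure D3:**
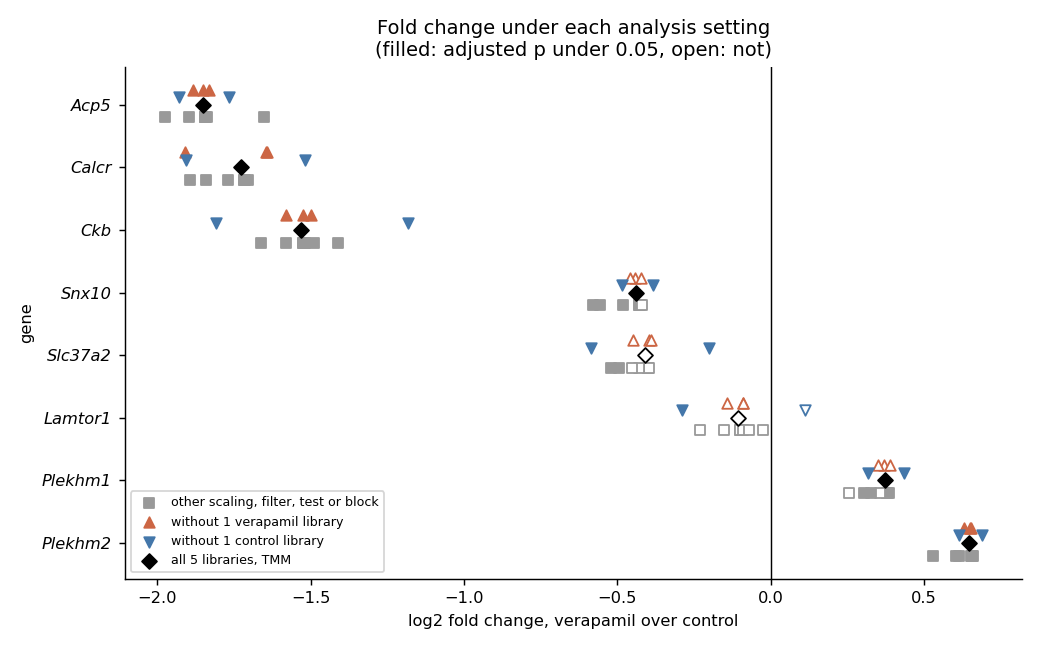
Log2 fold change, verapamil over control (x axis), of each of the 8 tested genes (y axis) with all 5 libraries and under 12 other settings, grouped by kind. Filled symbols have an adjusted p under 0.05. Acp5, Calcr, Ckb and Plekhm2 are filled throughout. Snx10 and Plekhm1 are open without any 1 verapamil library and with the replicate block, and Plekhm1 also under upper quartile scaling. Lamtor1 crosses 0 between the fits without 1 control.

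Per kilobase of annotated exon, the order of levels in the controls ran from Acp5 (999 ± 76.6 CPM per kb, SD, n = 2) and Ckb (278 ± 83.6) through Lamtor1 (61.1 ± 11.8) and Slc37a2 (48.7 ± 9.19) to Plekhm1 (25.3 ± 1.47), Snx10 (23.2 ± 1.21), Plekhm2 (22.4 ± 0.865) and Calcr (6.18 ± 1.18). Lamtor1 and Slc37a2 overlapped in the controls, as did Snx10 and Plekhm2. With verapamil the level of Acp5 was 277 ± 9.98 CPM per kb (SD, n = 3), near that of Ckb in the controls, and Ckb was at 96.1 ± 5.48. Lamtor1 (56.8 ± 2.47) came next, ahead of Slc37a2 (36.7 ± 1.49), Plekhm2 (35 ± 0.588) and Plekhm1 (32.7 ± 0.87). Snx10 (17.2 ± 0.439) stood below these, and Calcr was at 1.87 ± 0.382. The order depended in part on the gene length used. With the longest transcript in place of all exons, Snx10 was at 33.2, Plekhm2 at 27.9 and Plekhm1 at 25.3 CPM per kb in the controls. With verapamil Plekhm2 (43.7) then lay above Slc37a2 (41.0), the reverse of their order by all exons.

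The partners of Plekhm2 and Plekhm1 were looked up in lists of genes for the same steps. The lists, like the 9 genes, were drawn up with earlier results of these data known. Arl8b, the lysosomal GTPase that Plekhm2 binds, had 253 and 234 CPM in the controls and 528, 502 and 494 CPM with verapamil. Every treated library was far above both controls (log2 1.06, SE 0.0965, edgeR adjusted p = 0.00119). Its paralog Arl8a had 146 ± 11.2 and 172 ± 3.83 CPM and did not pass (log2 0.24, adjusted p = 0.116). Of 18 tested genes of the BORC complex, Arl8 and kinesin, 2 were higher (Arl8b and the neuronal motor Kif1a) and 0 lower, with a median log2 fold change of 0.25. Over all tested genes 9.99% were called higher and 15.4% lower. DESeq2 called 3 higher and 0 lower. At an unadjusted p under 0.05, a looser limit with no share of all genes given here, there were 7 higher and 1 lower. Of the 8 BORC subunits 0 passed in edgeR's test (3 at an unadjusted p under 0.05) and 0 in DESeq2. Kif5b, the kinesin-1 heavy chain, had 131 ± 34.8 and 164 ± 13.6 CPM (log2 0.32, adjusted p = 0.22). The call of Kif1a, at 2.33 CPM in the controls, was lost without verapamil replicate 1, 2 or 3 (highest adjusted p = 0.128). Without control replicate 1, or with the length trend removed, the list had 7 higher and 0 lower, and without control replicate 3 it had 8 higher and 4 lower.

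Among 14 tested genes of Rab7 and HOPS tethering, the machinery that Plekhm1 joins, 4 were higher and 0 lower (median 0.32), in edgeR's and DESeq2's tests alike, against 9.99% higher among all genes. At an unadjusted p under 0.05, a looser limit with no share of all genes given here, there were 9 higher and 1 lower. Vps18, a core HOPS subunit, rose from 88.1 ± 2.03 to 133 ± 1.68 CPM (log2 0.60, edgeR adjusted p = 0.00577). Rab7 itself rose from 627 ± 26.9 to 870 ± 28.5 CPM (log2 0.47, adjusted p = 0.0145). Osbpl1a, a cholesterol-sensing Rab7 effector, rose by 0.83 and the HOPS subunit Vps11 by 0.50. Without verapamil replicate 1 or 2 only Vps18 remained called, and without verapamil replicate 3 none did, with Vps18 at an adjusted p of 0.0507. The list median was 0.48 without control replicate 3. There were 7 higher and 0 lower with the length trend removed, and 2 higher and 0 lower with the replicate block, where the calls of Rab7 and Vps11 were lost. Of 10 other tested genes listed as pleckstrin or RUN domain adaptors, 2 were higher and 1 lower. Their median was 0.34 with all libraries, 0.17 without control replicate 1 and 0.44 without control replicate 3. Rufy4, which promotes lysosome clustering and autophagy, fell from 13.1 ± 1.72 to 3.99 ± 0.381 CPM (log2 -1.72, adjusted p = 0.00121). Plekhm3 had 46 ± 16.8 and 73.2 ± 8.26 CPM (log2 0.67, adjusted p = 0.0854). The calls of Rufy1 (0.45) and Rufy3 (0.36) were lost without verapamil replicate 1, 2 or 3 and with the replicate block. Rufy3 did not pass under upper quartile scaling (adjusted p = 0.122) or with a minimum count of 50 (adjusted p = 0.0544) either. With the length trend removed it was at log2 0.19 (adjusted p = 0.229).

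**Figure D4:**
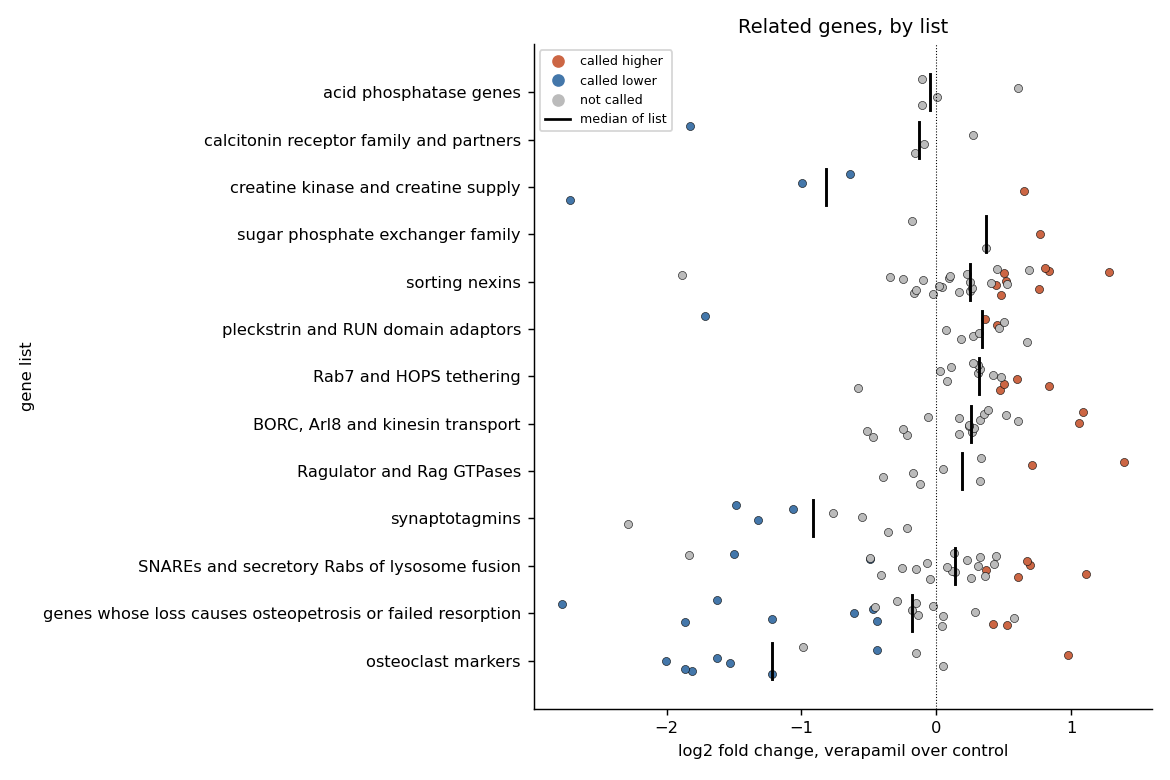
Log2 fold change, verapamil over control (x axis), of tested genes related to the 9 genes, which are themselves left out, by list (y axis). Points are genes, coloured by whether they were called, and black bars are list medians. Called genes of the sorting nexin, Rab7, BORC and Ragulator lists lie above 0. Of 11 osteoclast markers 7 were called lower and 1 higher (Atp6v0d2, log2 0.98), against 15.4% lower and 9.99% higher among all genes.

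The sorting nexins called beside Snx10 went the other way. Of 28 others tested 8 were higher and 0 lower in edgeR's test, with a median of 0.25, against 9.99% higher among all genes. DESeq2 called 9 higher and 0 lower. At an unadjusted p under 0.05, a looser limit with no share of all genes given here, there were 13 higher and 1 lower. The endosomal recycling factor Snx27 rose from 124 ± 41.5 to 300.0 ± 24.2 CPM (log2 1.28, edgeR adjusted p = 0.00886). Snx33 and Snx7 rose by 0.81 and 0.76. Under upper quartile scaling the counts were 6 higher and 2 lower. They were 3 higher without verapamil replicate 1, 2 or 3, and 13 higher without control replicate 1 or 3 (with 1 and 4 lower). With the length trend removed there were 15 higher and 2 lower.

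Of the Ragulator subunits Lamtor2 to Lamtor5, 0 passed in edgeR's test (log2 -0.39 to 0.33, adjusted p = 0.144 to 0.643), 0 at an unadjusted p under 0.05 and 0 in DESeq2. Without control replicate 1, 1 of the 4 was called, and without control replicate 3, 3 were. The Rag GTPases that dock on Ragulator did not all follow. Rragd had 69.4 and 89.4 CPM in the controls and 201, 216 and 209 CPM with verapamil (log2 1.39, adjusted p = 0.0014), and Rragc rose from 323 ± 8.41 to 528 ± 15.6 CPM (log2 0.71, adjusted p = 0.00338). Rraga had 54.3 ± 1.79 and 56.3 ± 2.94 CPM (log2 0.05, adjusted p = 0.723). Among SNAREs and secretory Rabs of lysosome fusion 5 of 25 were higher and 2 lower, against 9.99% higher and 15.4% lower among all genes. There were 1 to 2 higher and 1 lower without a verapamil library. The list median was 0.14 with all libraries, 0.24 without control replicate 1 and 0.12 without control replicate 3. With the length trend removed there were 8 higher and 3 lower. The syntaxin Stx3 rose from 35.5 ± 3.17 to 76.7 ± 3.83 CPM (log2 1.11, adjusted p = 0.00156). Rab38, a GTPase of lysosome-related organelles, fell from 17.7 ± 0.426 to 6.25 ± 0.758 CPM (log2 -1.50, adjusted p = 0.00126).

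Around Ckb, all 4 tested genes of creatine handling were called, against 25.4% of all tested genes. Slc6a8, the transporter that takes up creatine, had 225 and 244 CPM in the controls and 373, 370 and 360 CPM with verapamil, and so rose while Ckb fell (log2 0.65, SE 0.0926, edgeR adjusted p = 0.0049). Ckmt1, the mitochondrial creatine kinase, fell from 4.2 ± 0.989 to 0.632 ± 0.178 CPM (log2 -2.72, adjusted p = 0.00195). The creatine synthesis enzymes Gatm and Gamt fell by 0.64 and 0.99 from about 10 CPM. Those 2 calls were lost without verapamil replicate 1, 2 or 3 (highest adjusted p = 0.117 and 0.118). The Gatm call was also lost with the replicate block (adjusted p = 0.0756). The size of the Gamt fall rested on the controls, at -0.57 without control replicate 1 and -1.32 without control replicate 3. Ckm and Ckmt2 were too low to be tested.

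Relatives of Acp5, Calcr and Slc37a2 were looked up as well. For scale, 25.4% of all tested genes were called. Of 4 other acid phosphatase genes 0 passed in edgeR's test (1 at an unadjusted p under 0.05) and 0 in DESeq2. Acp2, the lysosomal acid phosphatase, had 274 ± 19.7 and 274 ± 14 CPM (log2 0.00, adjusted p = 0.98). The median of these 4 was -0.05 with all libraries and -0.005 without control replicate 3. Calcrl, the paralog of Calcr, had 38.2 ± 5.76 and 34.3 ± 1.21 CPM (log2 -0.16, adjusted p = 0.388). The G protein subunit Gnas, which couples the calcitonin receptor to cyclic AMP, had 544 ± 5.73 and 656 ± 43.8 CPM (log2 0.27, adjusted p = 0.0955). The peptide hormone Adm, the 1 called gene of 4 tested in the calcitonin receptor list, fell by 1.82 on the log2 scale (adjusted p = 0.00472). The median of this list was -0.13 with all libraries, -0.02 without control replicate 1 and -0.22 without control replicate 3. In the family of Slc37a2, Slc37a3, a lysosomal transporter, rose from 27.3 ± 3.34 to 46.5 ± 2.35 CPM (log2 0.77, adjusted p = 0.00764), a call just lost without verapamil replicate 3 (adjusted p = 0.0503). Slc37a1 and Slc37a4 did not pass (log2 0.37 and -0.18).

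Snx10 and Plekhm1 also belong to the genes whose loss blocks osteoclast formation or resorption. Of 19 other tested genes of this kind 2 were higher and 7 lower (median -0.18), against 9.99% higher and 15.4% lower among all genes. Ostm1 rose by 0.42 (edgeR adjusted p = 0.0205). This call was lost under upper quartile scaling, with the replicate block (adjusted p = 0.0864) and without verapamil replicate 1, 2 or 3 (highest adjusted p = 0.122). Car2, the carbonic anhydrase that supplies protons, fell from 24.3 ± 3.88 to 6.68 ± 0.462 CPM (log2 -1.86, adjusted p = 0.00076), close to Acp5. Fos and Dcstamp fell by 2.78 and 1.62 on the log2 scale (edgeR adjusted p = 0.000472 and 0.000676). Tcirg1, the proton pump subunit most often mutated in osteopetrosis, had 587 ± 86.4 and 605 ± 15.8 CPM (log2 0.04, adjusted p = 0.799). Without a verapamil library the list had 0 higher and 4 lower, whichever was left out, and it had 4 higher and 10 lower without control replicate 1 and 5 and 9 without control replicate 3.

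The genes nearest to each called gene in centred log2 CPM over the 5 libraries were also listed, 3 for each. For Acp5 they were Nsg1, Serping1 and Serpinh1, for Calcr Medag, Gm12250 and Fzd3, and for Ckb Bace2, Fcgrt and Tmem98. For Snx10 they were Fmnl1, Pcx and Kansl2, for Plekhm1 Spg20, Pirb and Slc35b3, and for Plekhm2 Sdcbp, Slc6a8 and Oxct1. The distances were 0.0272 (Sdcbp) to 0.217 (Fzd3) log2 units. Such likeness is common over 5 libraries, since 7.09% (Calcr) to 9.56% (Acp5) of other tested genes had a Pearson r above 0.95 with the gene in question.

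Markers of the cell types such a culture could hold were also counted. Over all tested genes 15.4% were called lower and 9.99% higher. All 10 osteoclast markers outside the 9 genes were detected, with a summed level of 4939 to 5861 CPM in controls and 2813 to 2922 CPM with verapamil, and 6 were lower and 1 higher. The 14 macrophage markers summed to 9794 to 11027 CPM in controls and 6680 to 6858 CPM with verapamil, with 9 lower and 1 higher. Stromal and osteoblast markers summed to 1318 to 1509 CPM and 538 to 563 CPM, with 11 of 13 tested lower. Dendritic cell markers summed to 137 to 168 CPM and 132 to 137 CPM, with 6 of 7 tested lower and Itgax higher. Neutrophil markers summed to at most 8.32 CPM, lymphocyte markers to at most 0.103 CPM, and erythroid and megakaryocyte markers to 22.7 to 35.3 CPM in controls and 1.18 to 1.62 CPM with verapamil, with Hba-a1 at 0. In bulk RNA fewer cells of a type and less RNA per cell cannot be told apart, and the part of these shifts in the changes of the 9 genes was not tested.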

How the data were processed

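RNA-seq of mouse osteoclasts was compared between 2 control and 3 verapamil libraries. The authors deposited 1 table of estimated counts per gene, given to 2 decimals. Totals differ between libraries, so the values appear not to be normalized. The builds GRCm38 and mm10 come from the submitters' processing notes. The aligner, counter, annotation and use of strand were not given in the sources used here. Counts were rounded. In R 4.3.3, edgeR 4.0.16 applied its expression filter (minimum count 10, minimum total 15), TMM scaling and a quasi-likelihood fit with the group as the only term (3 residual degrees of freedom). Standard errors were taken from the edgeR test (log2 fold change over the root of F). The pipeline was tested on simulated data. Alternatives were RLE and upper quartile scaling, DESeq2 1.42.0, no filter, a minimum count of 50, each library left out, a replicate block and, added after seeing the data, a transcript length trend removed with an offset.

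The 9 genes, the 13 lists and the rules were chosen with earlier results of these data known. Named list genes are those called, up to 3 per list and direction by smallest p, besides the 9 genes. Others (Arl8a, Kif5b, Plekhm3, Vps11, Rraga, Lamtor2 to Lamtor5, Acp2, Calcrl, Gnas, Slc37a1, Slc37a4, Tcirg1, Ckm, Ckmt2, Itgax, Lrrc51) were named after their values were seen. Among the named genes of the rule that are not described are Vamp4, Stxbp3 and Clcn7. Gene positions come from RefSeq (GRCm38.p6), and exon lengths and shared exon bases from GENCODE M21. Depth was 20202340 to 21494523 estimated counts per library. In every pair within a group the libraries differed by more than counting noise. No pair was therefore treated as a repeat deposit of 1 library, which does not show that replicates were separate cultures.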

Additional observations from a re-analysis of the deposited data

How the results depend on the processing

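Acp5, Calcr, Ckb and Plekhm2 kept their direction and their call in each of 12 other settings. Of the 9 genes 6 were called with all 5 libraries. The count of called genes, 3200 with all libraries, ran from 1460 to 7808 with 1 library left out, and that of called list genes other than the 9 from 21 to 102. Removing the length trend raised the latter to 73. Snx10 was not called with the replicate block (log2 -0.42) and ran from -0.49 to -0.38 with 1 library left out. Plekhm1 was not called under upper quartile factors (0.25) or the block (0.36), with 0.32 to 0.43 leaving out libraries. Slc37a2 was called under upper quartile factors (-0.52), DESeq2 (-0.40) and the length trend removed (-0.49), with -0.58 to -0.20 leaving out libraries. Lamtor1 ran from -0.29 to 0.11 there. The replicate block and fits with any 1 library left out have fewer residual degrees of freedom. Fits without a control also hold no spread between controls. The causes of the lost or gained calls were not tested.

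Both groups share replicate numbers and the series' design text speaks of 3 pairs, but no label says what a shared number marks, so the block was not the main fit. Deviations from the group means correlated at 0.289 for replicate 1 and 0.0224 for replicate 3. With 2 controls their deviations mirror each other. Control replicate 3 with verapamil replicate 1 was thus at -0.289, and control replicate 1 with verapamil replicate 3 at -0.0224. Control replicate 1 with verapamil replicate 2 was at -0.289 too. These values therefore cannot show whether a shared number marks a pair. The replicate block, in which verapamil replicate 2 has no partner, gave 3317 calls against 3200. Of 35 named list genes, 0 changed sign in any setting, and 55 of 419 comparisons lost the call, 44 of them with a library left out and 6 with the block. With the block 4 of the 9 genes were called, and Rab7 (adjusted p = 0.0677), Vps11, Gatm (0.0756), Ostm1 (0.0864), Rufy1 (0.11) and Rufy3 (0.228) were among the list genes that lost the call.

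With the longest transcript as gene length, control and verapamil levels per kb were 1402 and 388 CPM for Acp5, 33.2 and 24.5 for Snx10, 27.9 and 43.7 for Plekhm2, and 101.5 and 94.4 for Lamtor1, and the verapamil level of Slc37a2 was 41.0.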
